A study of Mus musculus with 2 samples.

Results

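Cyclic AMP (cAMP) signalling was described through 42 genes in the hippocampus of adult mice. The genes were chosen by symbol, matched through the deposited transcript tables to gene identifiers, and make up 42 of the 55536 annotated genes. Total RNA was sequenced from 2 female B6CASTF1/J mice, a cross of B6 and Cast per the labels, aged 8 to 10 months. Animal 1 is replicate 1 and animal 5 is replicate 2, with 1 library each, for which 300 ng of RNA was used together with the synthetic ERCC spike-in transcripts. No treatment or mutant allele is named, so the libraries form 1 group and no conditions were compared. Both labels carry the same donor identifier beside different animal numbers. The libraries were taken as 2 animals, and every SD and ratio below measures the spread between these 2 libraries only. The labels call the tissue a layer of hippocampus and do not say which layer.

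In this pathway, G proteins coupled to receptors stimulate or inhibit adenylyl cyclases, which make cAMP from ATP. cAMP binds the regulatory subunits of protein kinase A and frees the catalytic subunits, and it also opens the Rap exchange factors of the Epac type, while phosphodiesterases break it down. In the hippocampus the pathway is known for its part in long-lasting synaptic potentiation and memory, in part through phosphorylation of the transcription factor CREB and the recruitment of its coactivators.

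The gene table summed to 34208349 expected counts for replicate 1 and to 28417193 for replicate 2. Levels are given as TPM, a length-normalised share of all transcripts, so different genes can be set side by side. TPM here covers all RNA in the tables, and recomputed over nuclear protein-coding genes the mean of Adcy1 was 328.6 TPM in place of 164 TPM. A gene counted as detected at 1 TPM or more in both animals. All 4 CA1 markers and all 5 dentate granule cell markers examined were detected. Of 12 choroid plexus epithelium markers 4 were detected by this rule, and the others reached 1 TPM in replicate 2 only. All 12 summed to 31.4 TPM in replicate 1 and 657 TPM in replicate 2, led by Ttr at 21.8 and 615 TPM. Of 13 activity-regulated immediate early genes 12 were detected, with a sum of 282 TPM in replicate 1 and 146 TPM in replicate 2. In bulk tissue, fewer cells of a type and less RNA per cell cannot be told apart.

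All 42 genes were detected in both animals, from Pde1c at 2.32 ± 0.16 TPM to Gnao1 at 329.8 ± 8.77 TPM (mean ± SD, n = 2 here and throughout). Gnao1 ranked 148 of 22015 protein-coding genes by mean TPM and Pde1c ranked 12075. Expected counts ran from 157 for Pkib in replicate 2 to 40086 for Adcy1 in replicate 1. Below, neighbouring genes are said to stand apart where the gap between their means was larger than either SD and ran the same way in each animal. Of 32 neighbouring pairs within the role groups, 25 stood apart, and 23 of these 25 kept their order in both animals in the second deposited transcript table, another quantification of the same libraries. The exceptions were Prkar1a with Prkar1b and Pde8b with Pde4a.

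**Figure D1:**
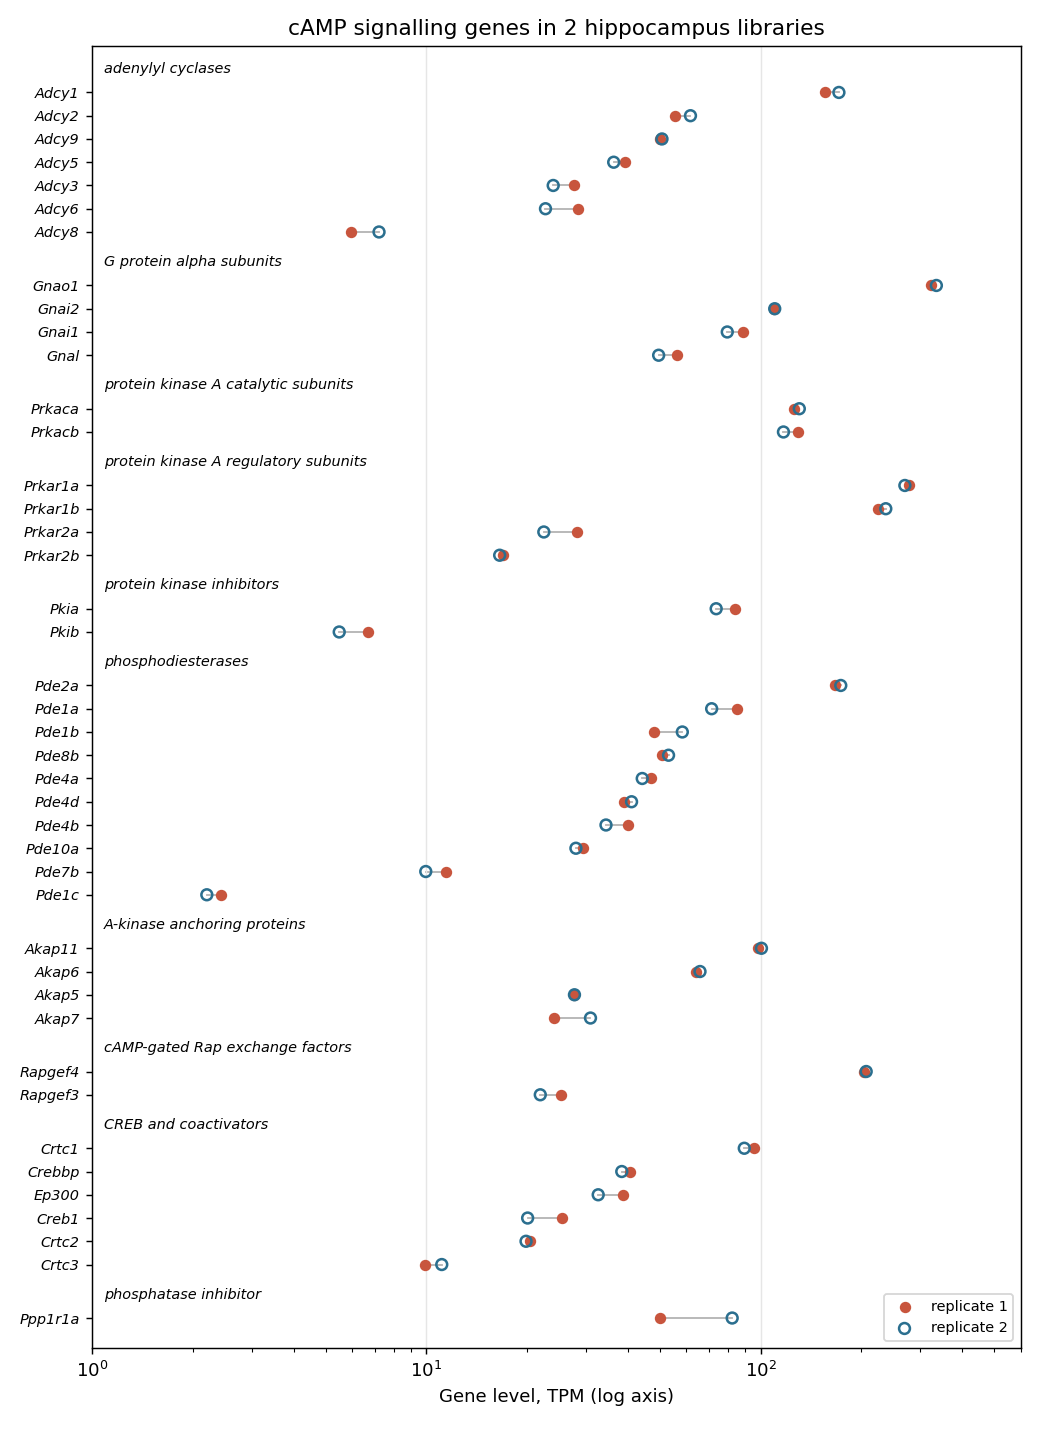
Gene level in TPM (log axis) of each of the 42 genes in replicate 1 (filled) and replicate 2 (open), grouped by role and ordered by mean within each role. Most pairs of points lie close together, and Ppp1r1a, at 50.01 TPM in replicate 1 and at 82.2 TPM in replicate 2, shows the widest gap.

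Among the G protein alpha subunits, which relay receptor signals to the cyclases, Gnao1 stood first. Gnao1 (ENSMUSG00000031748.16, chromosome 8, 93809966 to 93969388 of mm10, plus strand) encodes the alpha subunit of Go, an abundant neuronal G protein of the inhibitory family. It had 324 TPM in replicate 1 and 336 TPM in replicate 2 and held 57.2 ± 1.72% of the summed TPM of the 4 subunits. Gnai2 followed at 109.95 and 110.3 TPM and Gnai1 at 88.5 and 79.5 TPM. Both encode alpha subunits that inhibit adenylyl cyclase. Gnal, which encodes the stimulatory subunit of the Golf type known from olfactory neurons and striatum, had 56.1 TPM in replicate 1 and 49.5 TPM in replicate 2. All 3 neighbouring pairs stood apart, and the levels of the 4 genes did not overlap between genes in any animal. Gnas, the main stimulatory subunit, is not among the 42 genes and was higher than all of them, at 865 TPM in replicate 1 and at 839 TPM in replicate 2.

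Gnao1 is annotated with 2 complete coding forms of 354 codons each that end in different coding exons, and both were listed in both animals. Shares of forms are given over the TPM of a gene's transcripts that GENCODE M21 annotates with a start and a stop codon. The form of Gnao1-201 and Gnao1-203 held 82.1% in replicate 1 and 84.2% in replicate 2, and the form of Gnao1-207 held 17.9% and 15.8%. In the second table they held 80.9% and 83.2%, and 19.1% and 16.8%. The coding sequences are identical for 737 bases and then differ at 88 of the last 325 bases. The last 75 coding bases before each stop codon (5′ to 3′, GENCODE M21 transcripts, chromosome 8 of mm10, plus strand) are shown as a part of the stretch that differs. Capitals mark the 20 positions where the 2 forms differ here.
Gnao1-201: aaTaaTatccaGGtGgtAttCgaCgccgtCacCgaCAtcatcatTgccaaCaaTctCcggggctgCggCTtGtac
Gnao1-207: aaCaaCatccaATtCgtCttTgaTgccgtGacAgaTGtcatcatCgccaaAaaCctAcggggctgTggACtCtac
Gnal likewise had 2 leading forms, here with different starts. The form of 448 codons held 62.4% in replicate 1 and 67.2% in replicate 2, and the form of 381 codons held 32.7% and 28.1%. Gnal overlaps Mppe1 on the opposite strand and Chmp1b on its own strand, which had 320 and 598 counts in replicate 1 against 4835 for Gnal, while replicate 2 had 346 and 402 against 3752.

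Adcy1 led the 7 adenylyl cyclases. It encodes a cyclase stimulated by calcium and calmodulin, enriched in neurons and known for its part in hippocampal plasticity in mice. Adcy1 (ENSMUSG00000020431.5, chromosome 11, 7063489 to 7178506, plus strand) had 156 TPM in replicate 1 and 172 TPM in replicate 2, and held 44.5 ± 1.97% of the summed TPM of the group. Adcy2, a cyclase that G protein beta-gamma subunits can stimulate, came next at 55.4 TPM in replicate 1 and at 61.7 TPM in replicate 2, so that Adcy1 was 2.80 ± 0.031 times as high. Adcy9, whose product responds poorly to forskolin, had 49.9 and 50.7 TPM. Adcy5 had 39.4 and 36.3 TPM, and its product is inhibited by calcium and by inhibitory G proteins.

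Adcy3, known from olfactory cilia and neuronal primary cilia, had 27.7 TPM in replicate 1 and 24.0 TPM in replicate 2. Adcy6, a close relative of Adcy5, had 28.4 TPM in replicate 1 and 22.7 TPM in replicate 2. Adcy3 and Adcy6 did not stand apart, since their order differed between the animals, while in the second table Adcy3 was higher in both, at 23.2 and 21.8 TPM beside 19.3 and 15.01 TPM of Adcy6. Adcy8, another cyclase stimulated by calcium and calmodulin, was the lowest at 5.93 TPM in replicate 1 and at 7.21 TPM in replicate 2. The level of Adcy1 was thus far above that of Adcy8 in both animals. Of the 3 cyclases outside the 42 genes, Adcy4 had 2.48 TPM in replicate 1 and 1.43 TPM in replicate 2, Adcy7 had 1.33 and 1.55 TPM, and Adcy10 had 0.38 and 0.29 TPM.

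Adcy2 has only 1 annotated transcript. Adcy1 and Adcy5 have 2 each, and both genes had at least 98.0% of their TPM in 1 transcript in both animals of the first transcript table. In the second table that transcript held 97.8% in replicate 1 and 95.7% in replicate 2 for Adcy1, and 82.2% and 83.1% for Adcy5. For Adcy8 the form of 1249 codons held all of the complete coding TPM in replicate 1 and 73.2% in replicate 2. Its form of 1219 codons was listed at 0 in replicate 1 and held 26.8% in replicate 2, and in the second table it held 0% and 25.3%. Both tables thus placed this form in replicate 2 alone, on 830 expected counts of the gene in each animal. Adcy9 was led by Adcy9-202 in the first table, at 73.2% of the gene in replicate 1 and 66.7% in replicate 2, and by Adcy9-201 in the second, at 59.4% and 54.3%. Both carry the same coding form of 1353 codons, whose share of complete coding TPM was 69.9 ± 4.59% in the first table and 64.5% in the second. Adcy6 had 25.2 ± 1.05% of its TPM in a transcript with a retained intron in the first table and 14.7% in the second. Adcy3 overlaps Cenpo on the opposite strand, which had 85 counts in replicate 1 and 93 in replicate 2.

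**Figure D2:**
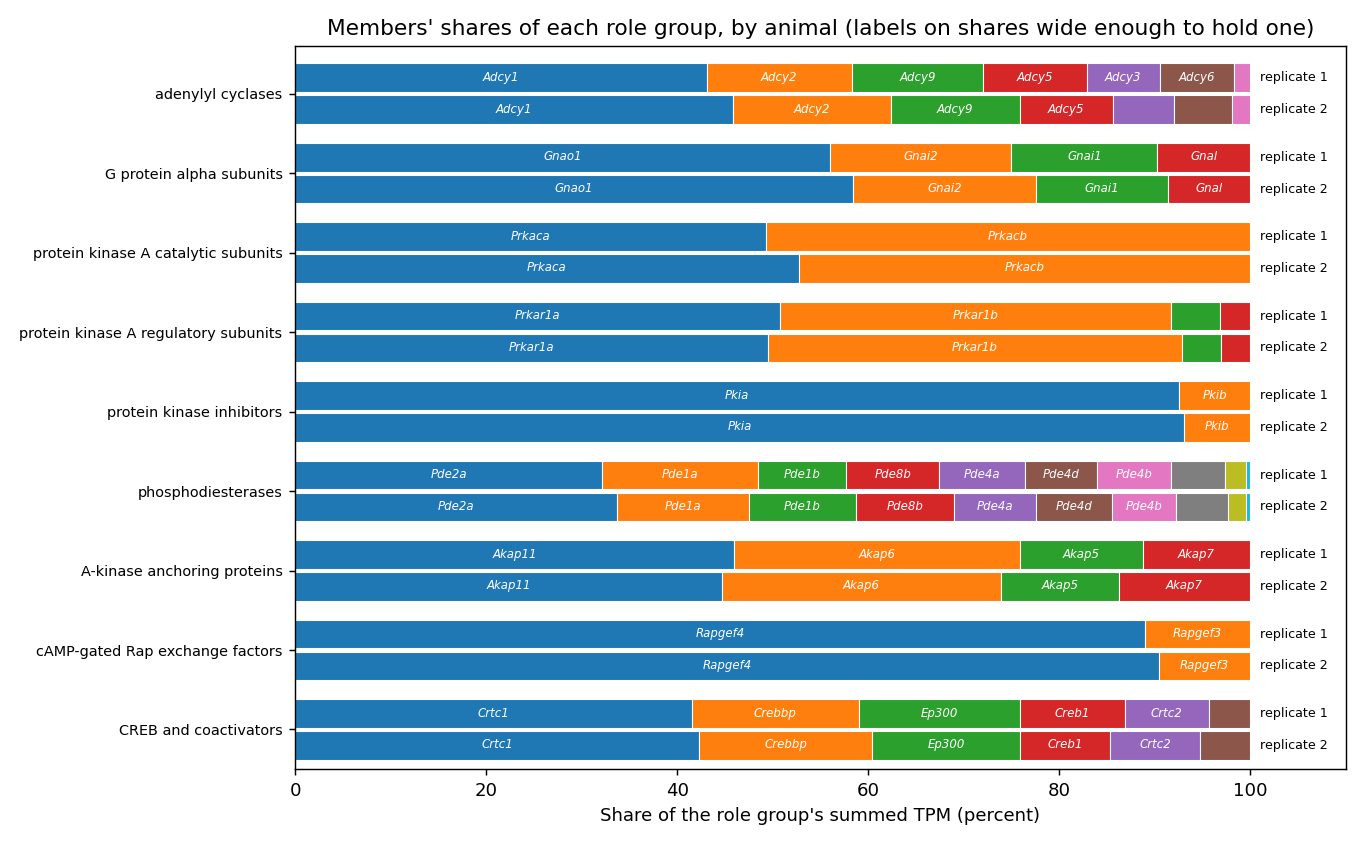
Share of each role group's summed TPM held by each of its members, in percent, with replicate 1 above replicate 2 in each group. One gene held most of the total in the inhibitors (Pkia, 92.6% and 93.1%) and the Rap exchange factors (Rapgef4, 88.9% and 90.4%), while the phosphodiesterases were spread over many genes.

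The catalytic subunits of protein kinase A, the main effector kinase of cAMP, were carried by Prkaca and Prkacb at similar levels. Prkaca (ENSMUSG00000005469.10, chromosome 8, 83972993 to 83996443, plus strand) had 126 TPM in replicate 1 and 131 TPM in replicate 2. Prkacb (ENSMUSG00000005034.15, chromosome 3, 146729574 to 146812990, minus strand) had 129.65 TPM in replicate 1 and 117 TPM in replicate 2. Their order differed between the animals and they did not stand apart. Prkaca held 51.0 ± 2.42% of their sum by the gene table but 44.6% by the second table, where Prkacb was higher in both animals. Their leading coding forms, both of 351 codons, share 80.3% of 1053 bases when aligned without gaps, and read assignment was not called uncertain for either gene.

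Prkaca came almost wholly as 1 coding form of 351 codons, at 98.5% of the complete coding TPM in replicate 1 and 99.4% in replicate 2. Prkacb came as 3 main forms that differ at their first coding exon. The form of 351 codons (Prkacb-202) held 63.7% in replicate 1 and 63.6% in replicate 2, that of 338 codons (Prkacb-203) held 26.5% and 24.7%, and that of 339 codons (Prkacb-204) held 8.84% and 11.7%. Complete coding transcripts held 84.5% and 85.4% of Prkacb TPM in the first table, and 57.8% and 62.5% in the second. As shares of complete coding TPM, the second table gave means of 63.7%, 24.6% and 11.1% for the 3 forms, close to the first. Their first 75 coding bases are shown because the start is what sets the forms apart (5′ to 3′, GENCODE M21 transcripts, chromosome 3 of mm10, minus strand), with capitals for the bases before the stretch of 1007 coding bases that all 3 share.
Prkacb-202: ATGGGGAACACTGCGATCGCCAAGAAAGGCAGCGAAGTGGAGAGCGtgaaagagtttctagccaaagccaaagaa
Prkacb-203: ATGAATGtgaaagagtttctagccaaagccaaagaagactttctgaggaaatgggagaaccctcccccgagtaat
Prkacb-204: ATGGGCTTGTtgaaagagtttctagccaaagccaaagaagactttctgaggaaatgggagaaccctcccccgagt
The first coding base lies at 146812683 for Prkacb-202, at 146769940 for Prkacb-203 and at 146770525 for Prkacb-204. The sequence in capitals is 46 bases long in Prkacb-202 and 7 and 10 bases long in the other forms, so few bases identify those 2 forms within the coding sequence.

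The regulatory subunits, which hold the kinase inactive until cAMP binds, were led by the type I genes. Prkar1a (ENSMUSG00000020612.16, chromosome 11, 109649405 to 109669656, plus strand) had 278 TPM in replicate 1 and 270.4 TPM in replicate 2. Prkar1b (ENSMUSG00000025855.13, chromosome 5, 139017306 to 139150001, minus strand), a form known to be enriched in neurons, had 224 TPM in replicate 1 and 237 TPM in replicate 2. In the gene table Prkar1a was higher in both animals, but in the second table Prkar1b was, at 245 TPM in replicate 1 and at 283 TPM in replicate 2 beside 223 and 216 TPM of Prkar1a. Their order therefore differs between the deposited tables. The leading coding forms have 381 codons each and share 73.8% of 1143 bases without gaps.

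The type II genes were lower. Prkar2a had 28.2 TPM in replicate 1 and 22.5 TPM in replicate 2, and Prkar2b, the type II form best known from neurons and fat, had 17.0 and 16.6 TPM. The type I pair together was 11.1 times the type II pair in replicate 1 and 13.0 times in replicate 2. The 4 regulatory genes summed to 547 TPM in replicate 1 and 546 TPM in replicate 2, against 256 and 248 TPM for the 2 catalytic genes, a ratio of 2.17 ± 0.047. These are levels of RNA and say nothing of the amounts of protein.

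Most Prkar1a TPM lay in 1 transcript. Prkar1a-201, which starts at 109650921, held 75.7% of the gene's TPM in replicate 1 and 76.4% in replicate 2, and Prkar1a-203, which starts at 109649405, held 15.5% and 16.4%. The second table gave 75.9% and 76.0% for Prkar1a-201. RefSeq promoter windows (GRCm38.p6, 250 bases before to 50 after each start) were matched for 35 of the 42 genes, 73 windows in all. The palindrome TGACGTCA, the full cAMP response element to which CREB binds, was searched in them, and as a palindrome it reads the same on both strands. Among the 35 genes Prkar1a alone held it (2.86%), beside 2.03% of all 27025 genes with a window. It did so in 2 overlapping windows, 2.74% of the 73, beside 1.79% of all 32851 windows. The shorter TGACG, on either strand and including every full element, was in 13 of the 35 genes (37.1%), against 23.1% of all 27025 genes with a window, and in 20.5% of the windows of the 35 genes against 20.8% of all windows. The 35 genes have 73 windows and the 27025 genes have 32851, so the 35 genes have more windows per gene. A match describes letters in a window and is no evidence of a site in use. The 250 bases before the RefSeq start at chr11:109650699-109650948 (plus strand) are shown because the element, in capitals, begins 21 bases before the start of Prkar1a-201.
Prkar1a promoter: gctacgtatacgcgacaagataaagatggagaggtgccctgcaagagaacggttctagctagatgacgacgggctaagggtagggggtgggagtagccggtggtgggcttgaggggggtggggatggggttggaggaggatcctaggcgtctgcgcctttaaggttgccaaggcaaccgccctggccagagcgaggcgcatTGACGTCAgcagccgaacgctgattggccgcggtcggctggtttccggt
Prkar1b was led by Prkar1b-201 in the first table, with 95.1% in both animals, and by Prkar1b-203 in the second, with 61.4% in replicate 1 and 57.6% in replicate 2. They start at different bases, 139129759 and 139130386, and encode the same form of 381 codons. The leading transcripts thus differ in start and not in coding form. Complete coding transcripts held 95.1% of Prkar1b TPM in both animals of the first table, but 69.9% and 63.4% in the second.

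Pkia led the protein kinase inhibitors, small proteins that bind free catalytic subunits and carry them out of the nucleus. Pkia (chromosome 3, 7366669 to 7445366, plus strand) had 83.6 TPM in replicate 1 and 73.7 TPM in replicate 2. Pkib had 6.67 TPM in replicate 1 and 5.48 TPM in replicate 2, on 190 and 157 counts, the lowest counts of the 42 genes. Pkia was 13.0 ± 0.64 times as high as Pkib, and 11.4 times in replicate 1 and 9.37 times in replicate 2 of the second table. Pkig, the remaining gene of this family and outside the 42, had 34.3 TPM in replicate 1 and 42.3 TPM in replicate 2, between the other two. Pkia is annotated with only 1 complete coding form, of 76 codons. A coding transcript of Pkia without a complete coding annotation held 0.47% and 0% of its TPM in the first table. In the second table that transcript held 34.4% in replicate 1 and 35.9% in replicate 2. Of the complete coding TPM of Pkib, 86.0 ± 2.64% went to a form of 78 codons.

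The 10 phosphodiesterases summed to 521 TPM in replicate 1 and 517 TPM in replicate 2. Pde2a, whose product breaks down cAMP and cGMP and is stimulated by cGMP, led them. Pde2a (ENSMUSG00000110195.1, chromosome 7, 101421691 to 101512827, plus strand) had 167 TPM in replicate 1 and 174 TPM in replicate 2, or 32.9 ± 1.04% of the group. The Pde1 genes encode enzymes that calmodulin activates. Pde1a had 84.8 TPM in replicate 1 and 71.4 TPM in replicate 2, Pde1b had 48.1 and 58.3 TPM, and Pde1c had 2.43 and 2.20 TPM. Pde1b and its neighbour in level, Pde8b, did not stand apart.

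The Pde4 genes encode enzymes specific for cAMP. Pde4a had 46.9 TPM in replicate 1 and 44.2 TPM in replicate 2, Pde4d had 39.1 and 41.1 TPM, and Pde4b had 40.1 and 34.5 TPM. Pde4d and Pde4b did not stand apart. As summed levels, the 3 Pde1 genes were at 135 TPM in replicate 1 and at 132 TPM in replicate 2, beside 126 and 119.8 TPM for the 3 Pde4 genes, a ratio of 1.09 ± 0.019.

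Pde8b and Pde7b encode cAMP-specific enzymes of low sensitivity to rolipram. Pde8b had 50.8 TPM in replicate 1 and 53.0 TPM in replicate 2. It stood above Pde4a in the gene table, and not in both animals of the second table. Pde7b was lower, at 11.5 and 9.95 TPM. Pde10a, which breaks down both cAMP and cGMP and is best known from striatal neurons, had 29.4 TPM in replicate 1 and 28.01 TPM in replicate 2. Among 6 cAMP phosphodiesterases outside the 42 genes, 4 were detected, led by Pde7a at 14.2 and 14.3 TPM and Pde11a at 11.1 and 6.82 TPM, with Pde4c lowest at 0.53 and 0.77 TPM.

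Several of these genes are known from the striatum, so the levels of striatal neuron markers are given beside them. Of 8 such markers 6 were detected, and all 8 summed to 46.3 TPM in replicate 1 and 55.7 TPM in replicate 2, with 25.8 and 30.8 TPM from Ppp1r1b. Drd1 had 3.60 TPM in replicate 1 and 8.80 TPM in replicate 2, and Drd2 had 1.67 and 1.81 TPM. Adora2a had 1.29 TPM in replicate 1 and 0.75 TPM in replicate 2. No marker of the list was at 0, and their part in the levels of Gnal, Adcy5, Pde1b, Pde7b and Pde10a was not tested.

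The phosphodiesterases were also the group with most coding forms. Pde4a was split between a form of 844 codons, at 57.7% of complete coding TPM in replicate 1 and 58.7% in replicate 2, and a form of 610 codons, at 41.2% and 39.1%. They share a stop codon and start at 21165928 and at 21197113 on chromosome 9. Long forms of Pde4 enzymes are known to carry regulatory regions that short forms lack in whole or part. Pde4b was led by a form of 721 codons, at 64.2% and 59.4%, followed by a form of 503 codons at 18.4% and 22.4%. In Pde4d a form of 584 codons held 49.5% in replicate 1 and 50.2% in replicate 2. Its form of 703 codons held 13.4% and 25.4% in the first table and 26.9% and 34.6% in the second, lower in replicate 1 in both.

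Pde2a had 2 leading forms that start at different bases. The form of 945 codons held 62.3% in replicate 1 and 52.8% in replicate 2, and that of 939 codons held 37.7% and 47.2%. The second table gave them 60.8% and 56.1%, and 25.1% and 28.7%, and a form of 935 codons that was listed at 0 in the first table held 14.2% and 15.1%. The single leading transcript of Pde2a in the first table was Pde2a-209, annotated as a target of nonsense-mediated decay, a pathway that degrades messages with early stop codons. Pde2a-209 held 36.9% of the gene's TPM in replicate 1 and 34.9% in replicate 2. The second table gave it 19.9% and 14.2%, and was led by the coding Pde2a-204 at 44.2% and 41.3%. Pde10a was led by a form of 796 codons at 66.5% and 73.9%, against 45.5% and 56.6% in the second table. A form of 727 codons of Pde10a was listed at 0 in the first table and held 22.3% and 13.4% in the second.

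The A-kinase anchoring proteins tether the kinase near its substrates. Akap11 led the 4 genes described. Akap11 (chromosome 14, 78492246 to 78536808, minus strand), whose product is a vesicle-associated anchor that also acts in autophagy, had 98.3 TPM in replicate 1 and 100.6 TPM in replicate 2, or 45.3 ± 0.91% of the group. Akap6, known as an anchor at the nuclear envelope of muscle cells and neurons, had 63.9 and 65.9 TPM. Akap5, an anchor of the postsynaptic density, had 27.6 TPM in replicate 1 and 27.7 TPM in replicate 2. Akap7, whose short forms sit at membranes, had 24.0 and 31.0 TPM. Akap5 and Akap7 did not stand apart. Of 10 anchoring genes outside the 42 genes 7 were detected, led by Akap8 at 55.0 and 46.4 TPM and Akap9 at 27.0 and 31.9 TPM, and Akap4 was listed at 0 TPM in both animals.

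Akap6 was divided almost evenly between a form of 2307 codons and one of 1224 codons with another end. The longer held 51.5% in replicate 1 and 50.7% in replicate 2, and 57.5% and 56.7% in the second table. Akap7 was divided between a short form of 81 codons, at 48.8% and 53.3%, and a long form of 314 codons, at 50.5% and 46.7%, so that their order differed between the animals in the first table. The short form led in both animals of the second table, at 59.05% and 51.2% beside 40.5% and 48.8%. Akap5 had a leading form of 752 codons at 84.3% and 88.9%. Akap11 had 2 forms that differ by 1 codon, the form of 1894 codons holding 69.6% in replicate 1 and 70.1% in replicate 2.

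Rapgef4 far exceeded Rapgef3 among the exchange factors, which switch on the small GTPase Rap when cAMP binds and act independently of protein kinase A. Rapgef4 (ENSMUSG00000049044.16, chromosome 2, 71981240 to 72257474, plus strand), the Epac gene known from brain and endocrine cells, had 204 TPM in replicate 1 and 207 TPM in replicate 2. Rapgef3, the more widely expressed Epac gene, had 25.3 and 21.9 TPM. As a ratio of levels, Rapgef4 was 8.05 times Rapgef3 in replicate 1 and 9.45 times in replicate 2, against 7.24 times and 5.52 times in the second table. Rapgef4 was thus the higher in each reading, but the order of the animals in this ratio differed between the tables. Complete coding transcripts held 65.45% and 63.8% of Rapgef4 TPM in the first table, and 57.2% and 58.7% in the second. Of this coding part, the form of 1011 codons held 69.3% in replicate 1 and 64.2% in replicate 2, and a form of 993 codons held 29.3% and 32.4%. In the second table these forms held 62.0% and 57.6%, and 36.6% and 38.1%. They differ by 54 coding bases, chr2:72174423-72174476 of mm10 on the plus strand, shown in capitals with 15 coding bases on either side because these bases alone part the forms.
Rapgef4-202: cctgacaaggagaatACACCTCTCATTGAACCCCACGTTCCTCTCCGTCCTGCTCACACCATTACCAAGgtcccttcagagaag
The shorter form that starts at a later exon, of 867 codons, held 1.37% in replicate 1 and 3.41% in replicate 2. In Rapgef3, 35.1% of the TPM in replicate 1 and 48.0% in replicate 2 was in transcripts with retained introns, beside 23.9% and 19.5% in the second table, so that the order of the animals depends on the table.

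In the group of CREB and its coactivators, Crtc1 was the highest. Crtc1 (ENSMUSG00000003575.13, chromosome 8, 70382355 to 70439579, minus strand) encodes the neuronal member of the CREB-regulated coactivators, which move to the nucleus when dephosphorylated. It had 95.8 TPM in replicate 1 and 89.4 TPM in replicate 2, and was 4.60 ± 0.15 times Crtc2 and 8.85 ± 1.13 times Crtc3. In the second table Crtc1 was 4.04 times Crtc2 in both animals, and 6.91 and 6.12 times Crtc3. Crtc2, the coactivator known from liver, had 20.4 TPM in replicate 1 and 19.9 TPM in replicate 2, and Crtc3 had 9.93 and 11.1 TPM. Crebbp and Ep300 encode related acetyltransferases that CREB recruits. Crebbp had 40.5 TPM in replicate 1 and 38.4 TPM in replicate 2, Ep300 had 38.8 and 32.7 TPM, and they did not stand apart.

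Creb1 (ENSMUSG00000025958.14, chromosome 1, 64532645 to 64604548, plus strand), which encodes CREB itself, had 25.4 TPM in replicate 1 and 20.1 TPM in replicate 2, and did not stand apart from Crtc2. Its 2 leading forms have 327 and 341 codons and differ by a single internal stretch. The form of 327 codons held 43.3% in replicate 1 and 59.0% in replicate 2, and that of 341 codons held 44.6% and 38.0%, so the order differed between the animals in the first table. In the second table the shorter form led in both, at 54.0% and 57.8% beside 29.7% and 35.1%. The 42 bases that only the longer form holds are shown in capitals with 15 coding bases on either side (5′ to 3′, Creb1-201, chr1:64559727-64559768 of mm10, plus strand), since they encode the 14 extra codons.
Creb1-201: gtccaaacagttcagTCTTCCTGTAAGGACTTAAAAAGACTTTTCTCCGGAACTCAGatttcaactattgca
Among 8 other CREB family genes and regulators, all detected, Atf2 was highest at 86.0 TPM in replicate 1 and at 82.0 TPM in replicate 2, followed by Sik3 at 71.1 and 69.3 TPM, and Creb5 was lowest at 2.43 and 2.73 TPM.

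Crtc2 was the gene whose deposited TPM lay least in coding transcripts. Its only complete coding transcript was listed at 0 in both animals of the first table and held 12.1% of the gene's TPM in replicate 1 and 13.4% in replicate 2 of the second. Transcripts with retained introns held 74.0% in replicate 1 and 76.9% in replicate 2 of the first table. The TPM of Crtc2 therefore counts mostly transcripts that are not complete coding transcripts, in either table. By the mean of the animals, 40 of the 42 genes, all but Crtc2 and Adcy6, had at least 50% of their TPM in complete coding transcripts in the first table. The second gave 39 such genes, all but Crtc2, Rapgef3 at 34.8% and Ppp1r1a at 44.4%, while Adcy6 stood at 70.5%. For 35 genes the share was at least 50% in both animals of both tables.

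**Figure D3:**
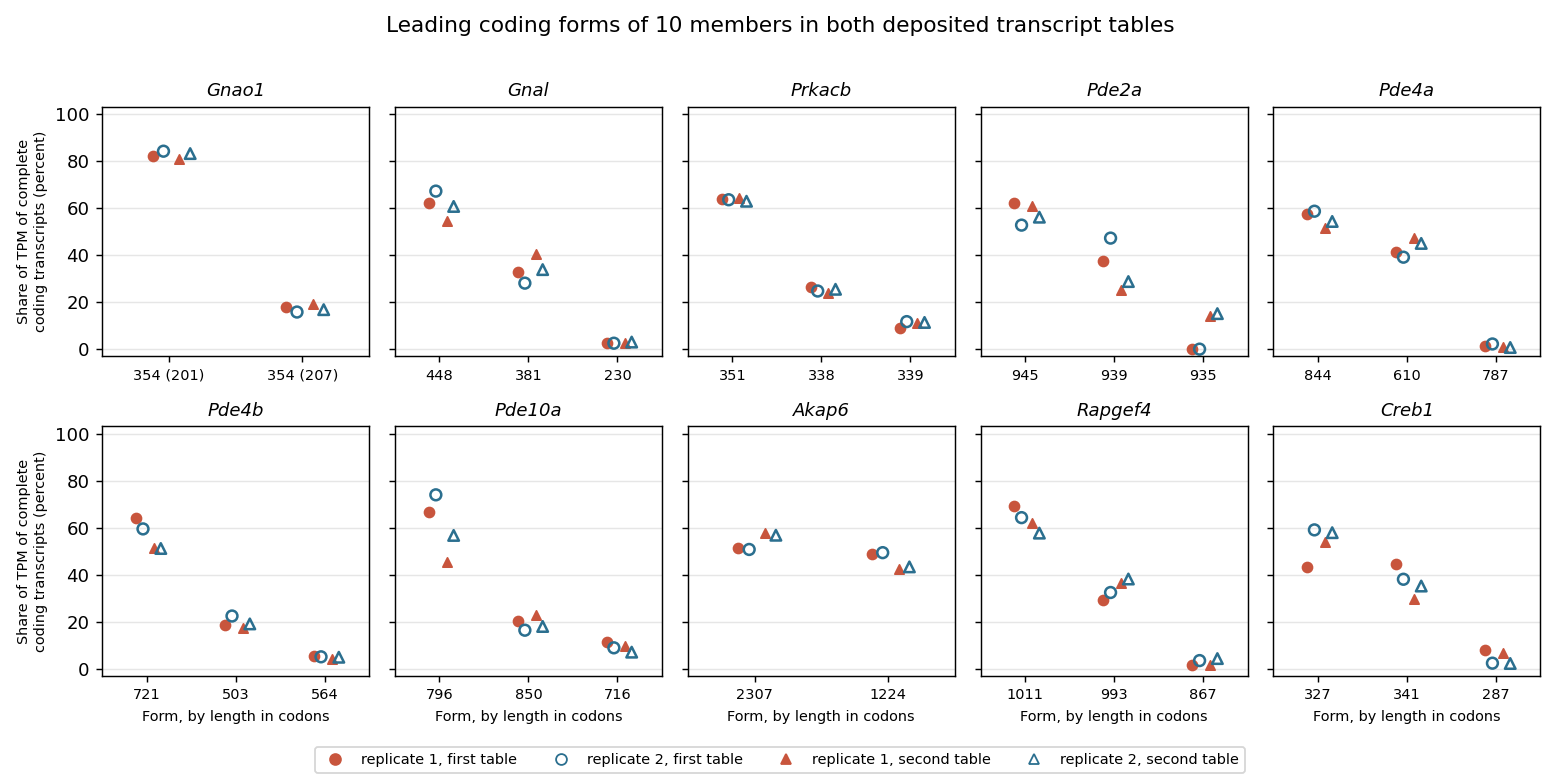
Share of the TPM of complete coding transcripts (percent) for the leading forms, up to 3 each, of 10 genes, in replicate 1 (filled) and replicate 2 (open) from the first transcript table (circles) and the second (triangles). Prkacb and Gnao1 have shares close together in all 4 readings, while Pde10a and Creb1 show readings that spread by table or by animal.

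Across the set, 32 of the 42 genes have more than 1 complete coding form. The leading transcript was the same in both tables for 33 genes. It differed for 9, and for 7 of those 9 the leading coding form was still the same. Ppp1r1a, among these 7, has only 1 complete coding form. In all, the leading coding form was the same for 40 of 42 genes. The exceptions were Rapgef3 and Crtc2, whose only complete coding form was listed at 0 in the first table. For a gene with 1 such form that is listed in both tables, agreement is fixed by the annotation. The count is thus informative only for the 32 genes with more than 1 form, where Rapgef3 alone differed. A coding form can pool several transcripts, as for Prkar1b and Adcy9. The count covers which form led and not the size of its share, which for Crebbp was 81.0% as the mean of the first table and 58.3% in the second.

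The difference between the animals was measured for each gene as the log2 ratio of expected counts scaled by TMM, replicate 1 over replicate 2, with a 95% interval that covers counting error only. This compares 2 libraries, not conditions, and no p-value was computed. All 42 genes had a mean count of at least 50, the minimum for this measure. None of them differed at least 2-fold with an interval that excluded equality, where 1.10% of 14434 genes tested did. At 1.5-fold 1 of the 42 did, beside 5.22% of all genes tested, and it was lower in replicate 1, as were 2.74% of all genes, while 2.47% were higher. The interval excluded equality, at any size of ratio, for 27 of the 42 genes (64.3%), beside 44.3% of all genes. Of these, 16 were higher in replicate 1 (25.6% of all genes were) and 11 were lower (18.7% of all genes). Such intervals narrow with the count.

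The log2 ratios ran from -0.69 to 0.40 with a median of 0.03, and the median of their sizes was 0.13, beside 0.14 over all genes tested and 0.12 over the 11431 genes within the same range of counts. A ratio above equality was found for 25 of the 42 genes, and for 54.1% of all genes tested. Scaled by the ERCC spike-ins instead, the median over all genes tested moved to 0.26 from 0.02 and 39 of the 42 genes had a ratio above equality, so directions of the small ratios rest on the scaling.

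**Figure D4:**
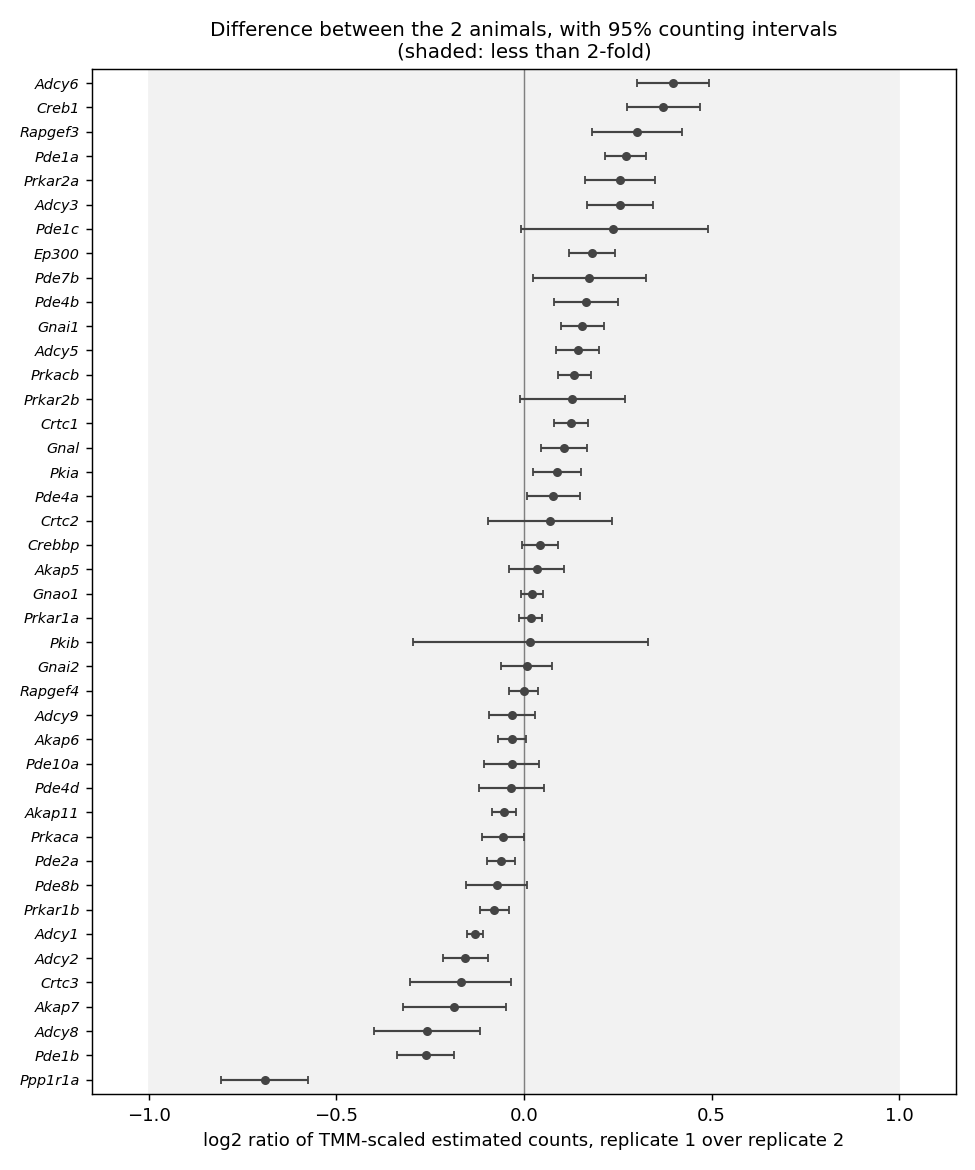
Log2 ratio of TMM-scaled expected counts, replicate 1 over replicate 2, for the 42 genes in order of the ratio, with bars for the 95% counting interval. All points lie inside the shaded range below 2-fold, and Ppp1r1a at -0.69 stands away from the next lowest, Pde1b at -0.26.

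With TMM scaling Ppp1r1a had the ratio farthest from equality. With spike-in scaling those of several other genes were farther, with Adcy6, Creb1 and Rapgef3 the farthest. Ppp1r1a encodes an inhibitor of protein phosphatase 1 that is active when protein kinase A has phosphorylated it. Ppp1r1a (ENSMUSG00000022490.7, chromosome 15, 103530279 to 103538003, minus strand) had 50.01 TPM and 1060 counts in replicate 1, and 82.2 TPM and 1430 counts in replicate 2. The log2 ratio was -0.69 with an interval of -0.81 to -0.58, and it was -0.45 with spike-in scaling. Its coding transcript Ppp1r1a-201 held 58.6% of its TPM in replicate 1 and 54.9% in replicate 2, and the noncoding Ppp1r1a-202 held 41.4% and 45.1%. In the second table Ppp1r1a-202 led, at 52.0% and 59.1%.

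The gene next to Ppp1r1a on chromosome 15 is Pde1b, which runs towards it on the plus strand from 103503034 to 103530052 and ends 226 bases before it. Pde1b had the next lowest log2 ratio, -0.26 with an interval of -0.34 to -0.19, and -0.02 with spike-in scaling. Adcy8 followed at -0.26, with 830 counts in each animal. At the other end were Adcy6 at 0.40, Creb1 at 0.37 and Rapgef3 at 0.30, and these were 0.64, 0.61 and 0.54 with spike-in scaling. By the second table the TPM of Adcy6 and Creb1 was again higher in replicate 1, but that of Rapgef3 was lower, with 28.6 TPM against 36.7 TPM for replicate 2, although its log2 ratio of counts there was 0.26.

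The choroid plexus and immediate early gene lists moved between the same libraries far more than the cAMP genes. All 8 choroid plexus markers with enough counts were called lower in replicate 1, with a median log2 ratio of -3.49. Of 12 immediate early genes measured, many of them known targets of CREB, 4 were called higher in replicate 1, Fos at 2.22, Arc at 2.09, Egr1 at 1.12 and Nr4a1 at 1.07 on the log2 scale, and the list's median was 0.74. Their part in the ratios of Ppp1r1a, Pde1b, Creb1 and the other cAMP genes was not tested.

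Of 40 further genes of the pathway, 32 were detected and 33 had enough counts. None of the 33 was called at 2-fold, beside 1.10% of all genes tested. The median log2 ratio of the 33 was 0.11. Crem, a CREB relative with an inducible repressor form, had 18.5 TPM in replicate 1 and 13.5 TPM in replicate 2, a log2 ratio of 0.72. Of 5 further genes listed beside the phosphatase inhibitor Ppp1r1a, Ensa had 155 and 145 TPM, Arpp21 had 136 and 134 TPM, and Ppp1r1c was lowest at 0.05 and 0.12 TPM. None of the 42 genes met the criterion for uncertain read assignment. Another annotated gene overlaps 27 of them, 20 on the opposite strand, and for 5 of the 42 an overlapping gene had a mean count of at least 50.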

How the data were processed

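Total RNA of 2 hippocampus libraries was deposited as 1 gene table and 2 transcript tables per library, on mm10 with the GENCODE M21 annotation, as the file notes state. Expected counts were deposited without normalisation, in the column layout of RSEM for the gene table and first transcript table, per the file headers. The second transcript table has estimated counts in the layout of kallisto, per the file headers. TPM was deposited after division by effective length, and FPKM was deposited by the authors and used for an alternative only. The deposited posterior SD, a signal on the scale of counts, covers read assignment. Tool versions and the strand setting are not given in the sources used, so a gene and an overlapping gene on the other strand may share reads.

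Only annotated genes entered library sizes, which left out 0.178% of expected counts in replicate 1 and 0.212% in replicate 2, nearly all spike-ins. Expected counts were rounded to whole numbers, scaled by TMM (edgeR 4.0.16, R 4.3.3) and given a prior count of 2. A gene was called where its ratio was at least 2-fold, its mean count at least 50 and its exact Clopper-Pearson 95% interval excluded 1. A gene's reads were called uncertain in assignment if the posterior SD was over 2 times the square root of the count. Coding forms were transcripts grouped by start codon, stop codon and coding length. Sequences came from the GENCODE M21 transcripts and RefSeq promoters (GRCm38.p6). The ratio script was tested on simulated data. All 42 genes are named. Of each other list the 2 highest and the lowest gene and those called were eligible, and Drd1, Drd2, Adora2a, Pkig and Crem were named after their values were seen. The genes and lists were chosen with earlier results of these data known. Alternatives were other scalings, count minimums, units, tables and leaving out each animal.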

Additional observations from a re-analysis of the deposited data

How the results depend on the processing

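No paired analysis was possible because the libraries form 1 group, with no groups to pair. All 42 genes were detected in the second table and in each animal alone, and 41 at a threshold of 5 TPM, which left out Pde1c. The count of 0 at 2-fold held with DESeq2 size factors, library size, spike-in scaling, both lower count minimums and the second table, and at 1.5-fold the count was 1. Over all genes the 2-fold count of 159 became 748 with a mean count of at least 10, 1253 with no minimum and 753 at 1.5-fold. Of the 159 calls 46.5% were higher in replicate 1, and of the 214 with spike-in scaling 78.5% were.

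Leading shares moved as follows with the second table, in place of the values given above: Gnao1 60.6%, Prkaca 44.6%, Prkar1a 42.4%, Pkia 91.2%, Pde2a 30.5%, Akap11 44.3%, Rapgef4 86.3% and Crtc1 35.6%. With expected counts without length normalisation they were Adcy1 67.1%, Prkaca 38.5%, Prkar1a 54.4%, Pkia 95.8%, Pde2a 34.8%, Akap11 48.6% and Crtc1 34.5%. The cause of the moves between tables was not tested, and in the change of unit the gene's length enters by construction. With 2 animals, an SD is itself poorly known, and counting intervals cover no other error.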
